A study of Danio rerio with 18 samples.

Results

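Ephrins, semaphorins, netrins and Slits and their receptors were read on arrays of zebrafish larvae exposed to bisphenol A (BPA). BPA is an estrogenic compound from which polycarbonate plastic and epoxy resin are made. A spot belonged to the set where its gene symbol begins with epha, ephb, efna, efnb, sema, plxn, ntn, slit, robo or unc5, or is dcc, cxcr4a, cxcr4b, gap43 or lrrc4.2. The rule found 72 of 23232 spots, 58 of 22980 probes and 51 of 9259 named genes. These were 9 Eph receptors, 10 ephrins, 14 semaphorins, 3 plexins, 3 netrins, 6 Slit and Robo genes and 4 others. The remaining 2, unc50 and slitrk6, match by their first letters only, do not belong to these families and are only counted. No spot matched dcc or a netrin receptor of the unc5 family.

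The vehicle, 0.05% ethanol, was in the water of every group. Control larvae received nothing else, and the BPA groups received 500, 1500 or 4500 µg/L. Exposure began at 3 hours after fertilization and lasted 7 days. RNA of pooled whole larvae was labelled with Cy5. On every array it met 1 common reference in Cy3, a pool of whole adult wild-type RNA of males and females at 9 to 1. The study describes the larvae on the arrays as wild-type, and their strain is not given in the sources used here. Dyes were not swapped. The 18 deposited scans hold 16 arrays, because the Control replicates 4 and 5 and the 1500 µg/L replicates 3 and 4 shared 99.83% and 99.98% of their Cy5 values and were each averaged to 1 array. Control larvae thus had 4 arrays, and the BPA groups had 5, 3 and 4 from the lowest to the highest concentration. Every level below is the log2 ratio of larvae over adult reference, so 0 means equal signal, and every change is the difference between the mean log2 ratios of a BPA group and Control.

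The genes code for the cues that steer growing axons and blood vessels. Eph receptors are receptor tyrosine kinases, and their ephrin ligands stay on the cell surface, by a lipid anchor in class A and by a transmembrane stretch in class B, so that contact between cells usually repels a growth cone. Semaphorins act through plexins, secreted class 3 members with neuropilins as co-receptors. Netrins attract or repel, and Slits repel axons through Robo receptors, as at the midline of the nervous system. The chemokine receptors cxcr4a and cxcr4b guide migrating cells and vessels, gap43 codes for a growth cone protein of growing axons, and lrrc4.2 belongs to a family of synaptic adhesion proteins that bind netrin-G ligands in mammals. The study picked a gene of that family on these same arrays, and its lists of deregulated genes from these arrays also hold the human homologs of efnb1 and slit2, so none of these 3 genes is independent evidence of a direction.

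Most of these spots were dim, though not dimmer than the array at large. The median log2 intensity was 8.43 over the member genes, against 8.15 over all named genes and 7.99 over all probes. The authors kept a ratio only for spots that were not flagged, 5127 to 19980 of 23232 per scan. The median member probe had a kept ratio on 10 of the 16 arrays. Only 9 of 58 had one on every array, and robo4, the endothelial Robo, and sema3bl had none. A Cy5 signal above the local background by 2 SDs was seen for the median member on 7 arrays, against 14 arrays for Cy3. Values are therefore given from 2 fits of the same limma model, 1 with kept spots only, which holds 13 member probes of 12 genes among 3878 probes, and 1 with every spot, which holds all 58. The median Cy3 background was 129 and 92 scanner units on 2 of 3 arrays at 1500 µg/L (replicates 1 and 3) and 110 and 111 on 2 of 4 at 4500 µg/L (replicates 2 and 3), against 162 to 247 on the other arrays. Its part in the results was not tested, so that values with these arrays as a block stand beside the members. Since whole larvae were extracted, fewer cells of a type and less RNA per cell cannot be told apart.

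Relative to the adult reference, the guidance genes of larvae were centred near 0. Over the 51 genes, each read by its brightest probe, the median log2 ratio was -0.07 in Control larvae and -0.07, -0.10 and -0.09 at rising concentrations, against medians of 0.02, 0.01, 0.02 and 0.00 over all 22980 probes. In Control larvae 47.1% of the genes lay above 0, against 51.9% of all probes. The lowest decile of the ratios over all 22980 probes ended at -0.84 in Control larvae and at -0.63, -0.57 and -0.54 at rising concentrations. Low ratios thus lay nearer 0 in the BPA groups across the whole array. The part of this shift in the rises of genes with low Control ratios, such as cxcr4a and epha3, was not tested. Only 1 member probe was above 0 on all 16 arrays, the brightest of sema3fa, a secreted class 3 semaphorin. 2 were below 0 on all, the brighter of plxna4, a receptor of semaphorin 3A, and that of sema3ab, a zebrafish semaphorin 3A. By this probe sema3fa averaged 1.198 ± 0.28 in Control larvae, the highest of the 51 brightest probes, although its other probes read below 0, and 0.63 ± 0.62, 0.74 ± 0.46 and 0.58 ± 0.35 from the lowest to the highest concentration (SD over 4, 5, 3 and 4 arrays). By its brighter probe plxna4 averaged -0.46 ± 0.41 in Control larvae and -0.47 ± 0.18, -0.95 ± 0.58 and -0.92 ± 0.41 at rising concentrations. Its dimmer probe averaged 0.03 in Control larvae and 0.07, 0.05 and 0.04 at rising concentrations, and was above 0 on 8 of 16 arrays. sema3ab averaged -0.37 ± 0.30, -0.38 ± 0.15, -0.53 ± 0.27 and -0.36 ± 0.22 from Control larvae to the highest concentration. The lowest Control level was that of epha3, an Eph receptor of class A, at -1.04 ± 0.47, followed by cxcr4a at -0.93 ± 0.21, and these neighbours did not differ beyond their spread.

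**Figure D1:**
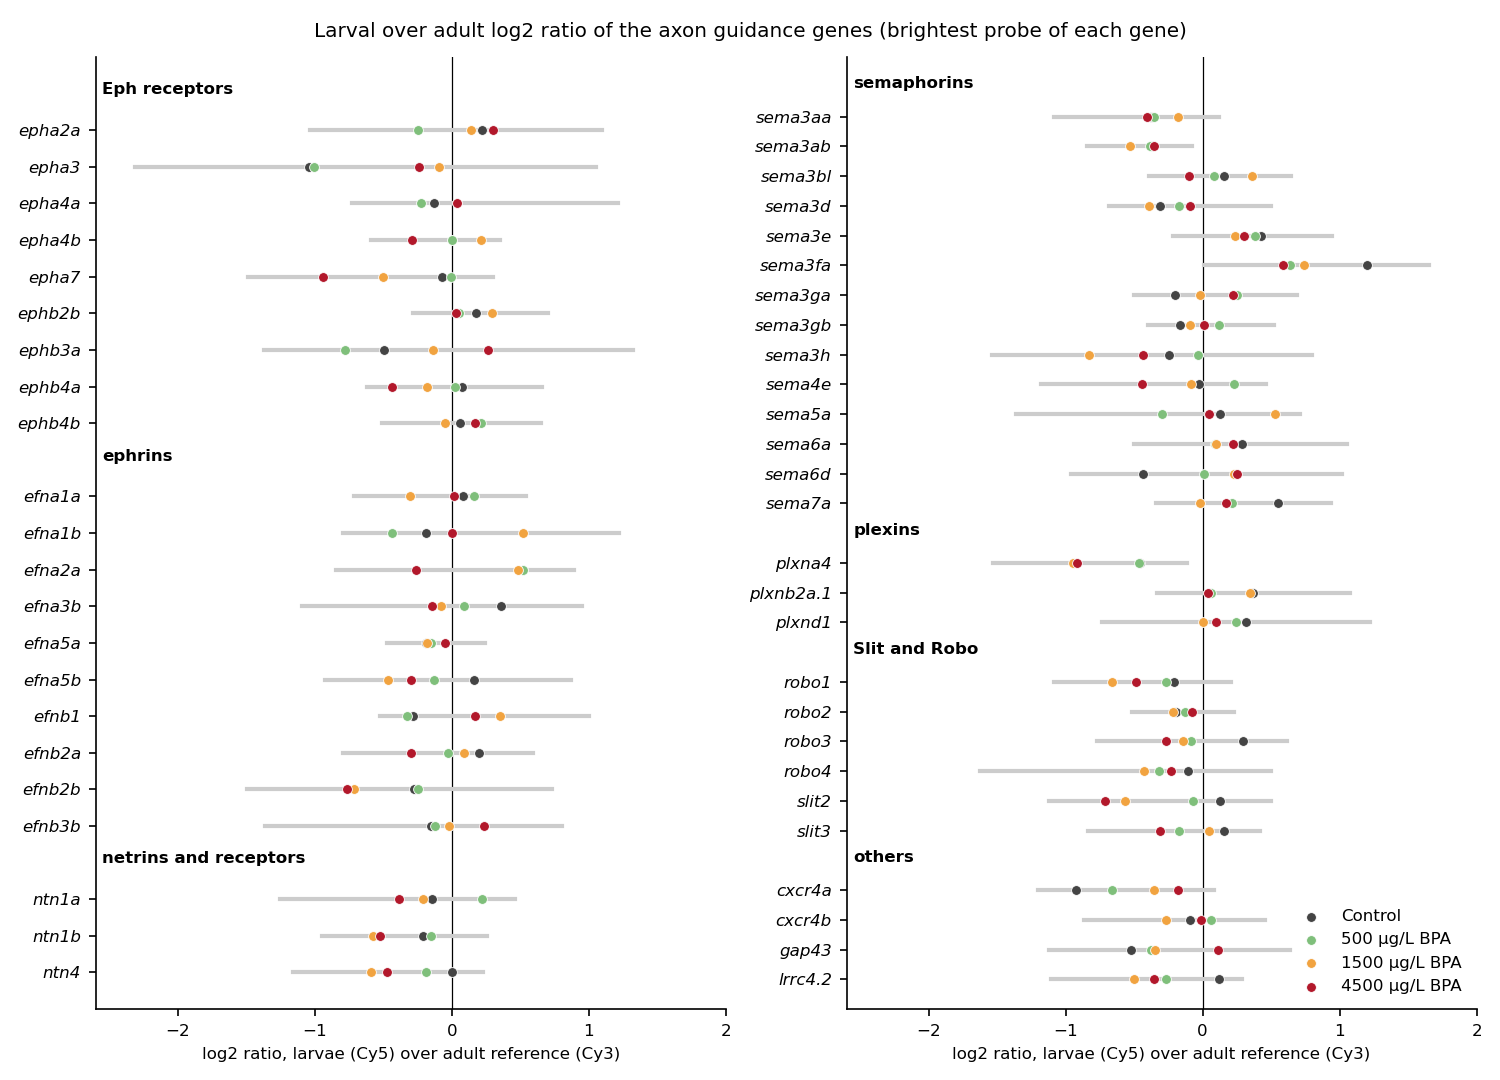
Larval over adult log2 ratio of the guidance genes, brightest probe of each. Points are group means, grey bars the range over the 16 arrays. Most ranges cross 0, while the brightest sema3fa probe, which its other probes do not follow, stays above it. The brighter plxna4 probe, which its dimmer probe does not follow, and sema3ab stay below.

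By family, the median ratio in Control larvae ran from -0.31 over cxcr4a, cxcr4b, gap43 and lrrc4.2 to 0.32 over the 3 plexins, and it was 0.00 for Eph receptors, -0.04 for ephrins, -0.10 for semaphorins, -0.14 for netrins and 0.01 for Slit and Robo genes. At 500 µg/L the medians were -0.01 for Eph receptors, -0.13 for ephrins, 0.09 for semaphorins, 0.06 for plexins, -0.15 for netrins, -0.15 for Slit and Robo genes and -0.32 for the 4 others. At 1500 µg/L they were -0.05, -0.05, -0.02, 0.01, -0.57, -0.32 and -0.35 in the same family order. At 4500 µg/L the family medians were 0.03 for Eph receptors, -0.10 for ephrins, 0.03 for semaphorins, 0.04 for plexins, -0.48 for netrins, -0.29 for Slit and Robo genes and -0.10 for the 4 others. For the Slit and Robo genes, the 4 arrays at 4500 µg/L had medians of -0.47 to -0.23, against -0.21 to 0.18 on the 4 Control arrays, so that these did not overlap. The 3 arrays at 1500 µg/L had medians of -0.42 to -0.14, which overlapped those of Control. For netrins at 4500 µg/L they were -0.60 to -0.21, against -0.58 to 0.26, and overlapped. Plexin array medians ran from -0.25 to 1.07 in Control larvae. At rising concentrations they ran from -0.33 to 0.27, -0.13 to 0.26 and -0.74 to 0.05, and overlapped those of Control. These are descriptions of lists of 6 and 3 genes without a test. In the list of 6, robo4, robo3 and slit3 had a kept ratio on 0, 3 and 6 of the 16 arrays. Replicates 2 and 3 at 4500 µg/L were arrays of low Cy3 background, and the part of this background was not tested. How often other lists of genes do not overlap in this way is not given here.

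No guidance gene passed an adjusted p under 0.05 at any concentration. With every spot, 0 of 58 member probes passed at 500, 1500 and 4500 µg/L, where 0%, 0.0131% and 3.08% of all 22980 probes did. With kept spots, 0 of 13 passed, where 0%, 0% and 0.0258% of all 3878 did. The lowest adjusted p of a member was 1, 0.369 and 0.0572 with every spot and 1, 0.647 and 0.158 with kept spots. Without adjustment, 1, 6 and 6 of 58 member probes had a p under 0.05 at rising concentrations with every spot, or 1.72%, 10.3% and 10.3%, against 3.72%, 11.2% and 21.8% of all probes. With kept spots it was 1, 3 and 1 of 13, against 1.47%, 7.19% and 20.5% of all probes. The methods' t-test, here with Benjamini-Hochberg adjustment of its own p-values, called 0 members in both fits, but it called 0 of all probes too. Its count of members therefore says nothing about them in particular. The study applied the Benjamini-Hochberg adjustment to its ANOVA. By this t-test with every spot, 4, 4 and 11 of 58 had an unadjusted p under 0.05, where 1172, 2044 and 3271 of all probes had one. By the t-test with kept spots, 1, 1 and 5 of 13 had one, where 147, 246 and 436 of all 3878 did. In the limma fit over every spot the members' shares were below the background at 500 and 4500 µg/L and near it at 1500 µg/L. In the kept-spot fit the share at 1500 µg/L, 23.1%, was above the background, on 3 probes, those of efnb1, lrrc4.2 and ntn4. Of these, efnb1 and lrrc4.2 are among the genes named above as no independent evidence, since the study's own choices came from these arrays. The order was not the same by the methods' t-test. With every spot, members there had a p under 0.05 somewhat more often than all probes at 500 and 4500 µg/L. With kept spots they had one more often at 4500 µg/L, on 5 probes, where the limma fit gave the opposite order. The counts of 1 at 500 and 1500 µg/L say little. The median change over the member probes was -0.01, -0.09 and -0.13, against 0.02, 0.04 and 0.02 over all probes, with 32, 38 and 37 of 58 below 0. The count at 4500 µg/L was not stable with every spot: it was 6 without replicate 4 of that group (cxcr4a, efna2a, epha7, slit2 and 2 probes of sema3fa) and 1 (a sema3fa probe) without Control replicate 4 or without replicate 2 at 1500 µg/L. The share of all probes that passed in these runs is not given here. These counts therefore do not show that guidance genes passed more often than other genes.

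**Figure D2:**
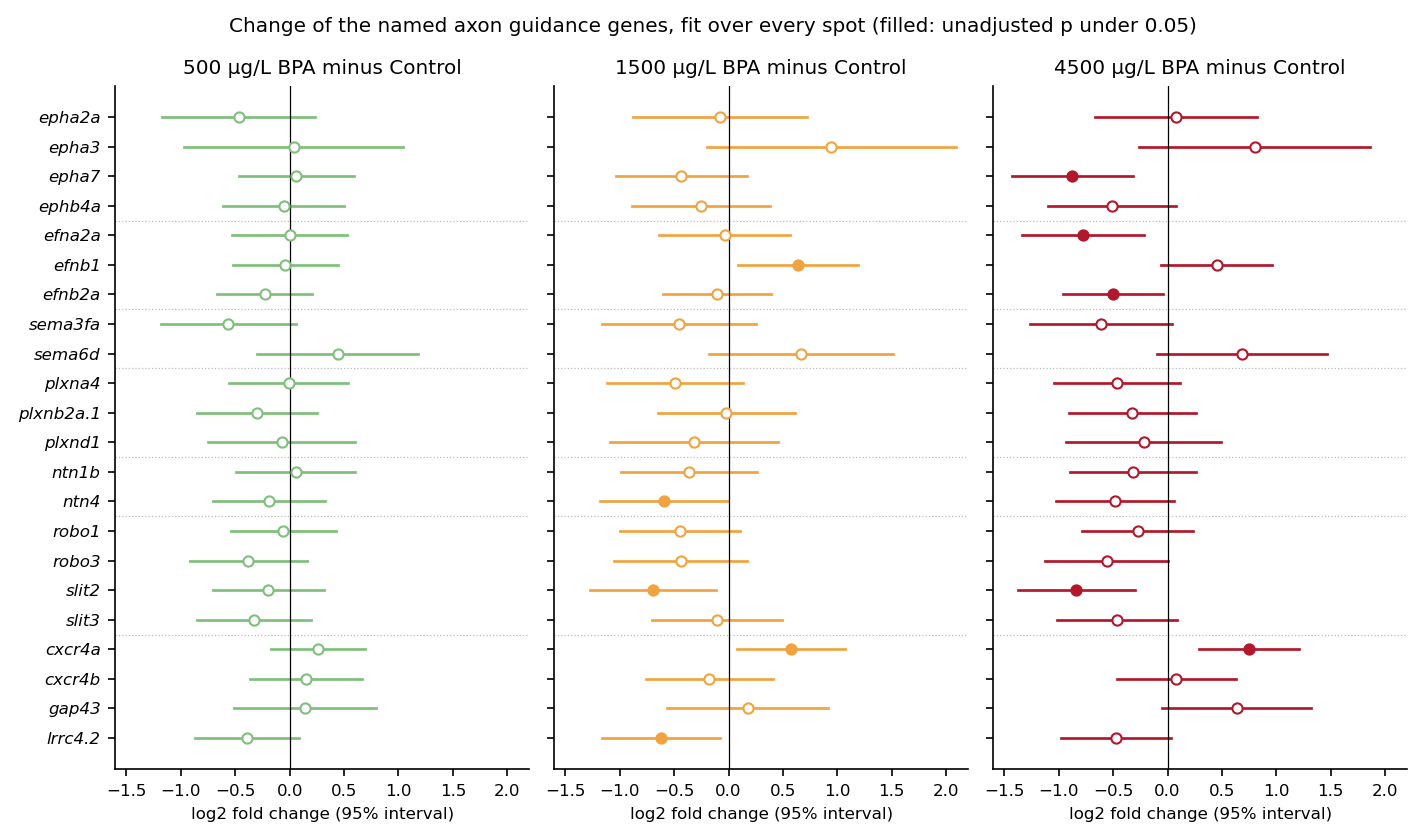
Log2 fold change of the 22 named genes (brightest probe) at each BPA concentration minus Control, in the fit over every spot. Lines are 95% intervals and filled points have an unadjusted p under 0.05; no adjusted p is under 0.05. At 4500 µg/L, epha7, efna2a, efnb2a and slit2 lie below 0 and cxcr4a above it with their whole intervals. The points of cxcr4b rest on a kept ratio on 1 array only and are no measured change.

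Among the Eph receptors, epha7, a receptor of class A ephrins best known in the patterning of brain and visual projections, had the lowest p of the family at 4500 µg/L. At 4500 µg/L its log2 ratios were -0.83, -1.49, -1.26 and -0.20, against -0.31, -0.25, -0.01 and 0.30 in Control larvae. Replicate 4 at 4500 µg/L lay inside the Control range and the other 3 below it. The difference was -0.87 with an SE of 0.27 (95% interval -1.43 to -0.32, unadjusted p = 0.00395, adjusted p = 0.0727), and without replicate 4 it was -1.12 (adjusted p = 0.00963). Over the runs that each left out 1 of the 16 arrays, the difference ran from -1.12 to -0.69, with an adjusted p of 0.00963 to 0.215. At 1500 µg/L it was -0.43 ± 0.29 (SE) and at 500 µg/L 0.06 ± 0.25 (SE). Both 4500 µg/L arrays of low Cy3 background were the lowest of the group, and with such arrays as a block the difference was -0.52 (unadjusted p = 0.056). On the arrays of higher background alone it was -0.45, and without background correction -0.42. A kept ratio existed on 3 of 4 arrays at 4500 µg/L and on 2 of 4 Control arrays.

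For epha3 the difference was larger at 1500 µg/L, but so was its error. There it read 0.14, -0.58 and 0.16, against -0.82, -1.65, -1.14 and -0.54 in Control larvae, so that 2 of 3 arrays lay above every Control array, both without a kept ratio and both of low Cy3 background. The difference was 0.94 ± 0.55 (SE, adjusted p = 0.526). epha3 ranged between -1.71 and 1.06 at 4500 µg/L, against -1.65 to -0.54 in Control larvae, a spread of 1.15 (SD) in the BPA group, and its difference of 0.80 ± 0.51 (SE) had an adjusted p of 0.371. ephb4a, the receptor of ephrin-B2 in veins, was at -0.56, -0.35, -0.62 and -0.21, against 0.66, -0.37, -0.37 and 0.38 in Control larvae, a difference of -0.51 ± 0.28 (SE, adjusted p = 0.3) that was -0.23 without background correction. epha2a, active in epithelia and the lens, differed by 0.08 ± 0.35 (SE) at 4500 µg/L, with a 95% interval of -0.66 to 0.82, and had no kept ratio at 1500 µg/L. Over the 9 genes, 5 changes at 4500 µg/L were above 0, and they ran from -0.87 to 0.80.

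Among the ephrins, efnb1, a transmembrane ligand with roles at tissue boundaries and in the neural crest, had kept ratios on all 16 arrays. At 1500 µg/L it read 0.40, -0.34 and 1.00, and at 4500 µg/L 0.01, 0.46, 0.11 and 0.09, against -0.19, -0.19, -0.24 and -0.53 in Control larvae. The 500 µg/L arrays lay between -0.47 and -0.16. All 4 arrays at 4500 µg/L were above all Control arrays, and 2 of 3 at 1500 µg/L. In the kept-spot fit the differences were -0.04 ± 0.24, 0.64 ± 0.27 and 0.45 ± 0.25 (SE) at rising concentrations, with an unadjusted p of 0.0269 at 1500 µg/L (adjusted p = 0.647) and 0.0835 at 4500 µg/L (adjusted p = 0.302). The 2 high arrays at 1500 µg/L were those of low Cy3 background. With these as a block the differences at the higher concentrations were 0.27 and 0.18, and on arrays of higher background alone -0.05 and 0.34. After correction for position in the order of spot IDs they were 0.24 and 0.10. Without replicate 3 at 1500 µg/L, the highest array, the difference there was 0.32.

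efna2a, a class A ephrin of the midbrain, read -0.85, -0.02, -0.33 and 0.16 at 4500 µg/L, against 0.84, 0.01, 0.43 and 0.79 in Control larvae, so that 1 Control array lay within the BPA range. Its difference was -0.78 ± 0.27 (SE, unadjusted p = 0.00898, adjusted p = 0.103), against 0.00 ± 0.25 and -0.04 ± 0.29 (SE) at 500 and 1500 µg/L. It was -0.82 with the low Cy3 arrays as a block and -0.86 on the other arrays alone but -0.41 without background correction, and 2 of 4 arrays had a kept ratio in either group. efnb2a, the arterial ephrin-B2, was at -0.12, -0.22, -0.79 and -0.07 at 4500 µg/L, against -0.11, 0.59, 0.04 and 0.27 in Control larvae, with overlap, a difference of -0.50 ± 0.22 (SE, unadjusted p = 0.0349, adjusted p = 0.193). Without replicate 3 at 4500 µg/L, it was -0.33, with the low Cy3 arrays as a block -0.34 and without background correction -0.29. Of the 10 ephrin genes, 4 had a change above 0 at 4500 µg/L, and the median was -0.26.

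**Figure D3:**
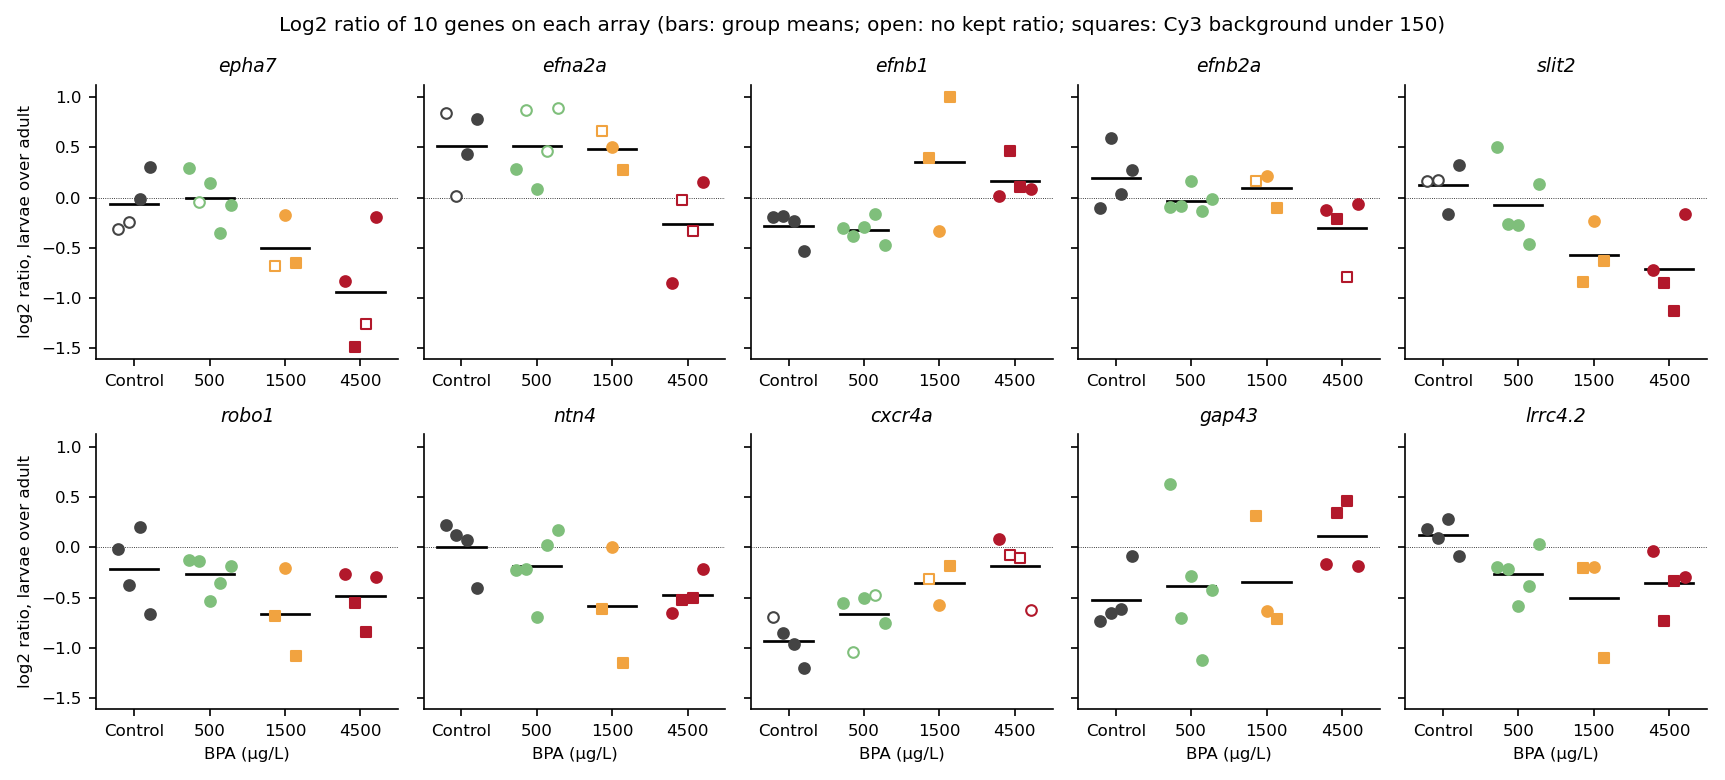
Log2 ratio of 10 guidance genes on each of the 16 arrays by BPA concentration. Bars are group means, open symbols have no kept ratio, and squares are arrays of Cy3 background under 150 units. For epha7 and slit2 the 4500 µg/L squares are lower than the circles. For cxcr4a the 4500 µg/L arrays are all above the Control arrays, with a kept ratio on 1 of these 4.

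The 3 probes annotated to sema3fa did not read alike. In Control larvae the brightest averaged 1.198 ± 0.28, probe 2 -2.01 ± 0.49 and probe 3 -0.15 ± 0.36 (SD, 4 arrays each). At 4500 µg/L the brightest read 0.19, 0.68, 0.45 and 1.01, against 1.43, 0.79, 1.25 and 1.32 in Control larvae, a difference of -0.61 ± 0.31 (SE, adjusted p = 0.26). Probe 2 read 0.29, -0.39, -0.99 and -1.43, against -2.36, -2.02, -2.33 and -1.31. Here 3 of 4 arrays at 4500 µg/L were above every Control array, and the difference of 1.38 ± 0.39 (SE, unadjusted p = 0.00211, adjusted p = 0.0572) was the change of lowest p among the members. Probe 3 read -1.32, -0.96, -1.16 and 0.13, against -0.42, 0.35, -0.11 and -0.41, a difference of -0.68 ± 0.34 (SE, adjusted p = 0.255). Across the 16 arrays the brightest correlated with probe 2 at r = -0.37 and with probe 3 at 0.11, and probes 2 and 3 at -0.62, over arrays that share their groups. A level or direction for sema3fa as a gene can therefore not be given, and the mean of its probes in Control larvae is -0.32, against 1.198 by the brightest. The difference of probe 2 was 1.23 with the low Cy3 arrays as a block and 1.44 on the other arrays alone. Without background correction it was 0.80, and that of probe 3 was -0.38.

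sema6d, a transmembrane semaphorin, gave a similar split. Its brighter probe had kept ratios on 3 arrays in each group, and in the kept-spot fit it differed by 0.82 ± 0.37, 0.75 ± 0.37 and 1.04 ± 0.37 (SE) at rising concentrations, with an unadjusted p of 0.0402, 0.0589 and 0.0119 and an adjusted p of 1, 0.647 and 0.158. The kept values at 4500 µg/L were 1.02, 0.60 and -0.06, against -0.85, -0.96 and 0.24 in Control larvae, so that the groups overlapped. With every spot the difference at 4500 µg/L was 0.68 ± 0.37 (SE), from the deposited ratios 0.30, and with kept spots but no background correction 0.60. The dimmer probe, with a kept ratio on no Control array, differed by -0.73 ± 0.28 (SE, unadjusted p = 0.0173, adjusted p = 1) at 500 µg/L and by -0.29 ± 0.29 (SE) at 4500 µg/L, and the probes correlated at r = -0.57 over the 16 arrays. sema7a, a semaphorin anchored in the membrane by a lipid and named here after its values were seen, differed by -0.57 ± 0.23 (SE, unadjusted p = 0.0227, adjusted p = 0.369) at 1500 µg/L, with a kept ratio on 4 arrays. Over the 14 semaphorin genes, 5 changes at 4500 µg/L were above 0, with a median of -0.08. The 6 genes with more than 1 probe were epha4b, ephb2b, efnb2b, plxna4, sema3fa and sema6d, and the probe pair with the highest correlation was that of efnb2b, at r = 0.41.

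**Figure D4:**
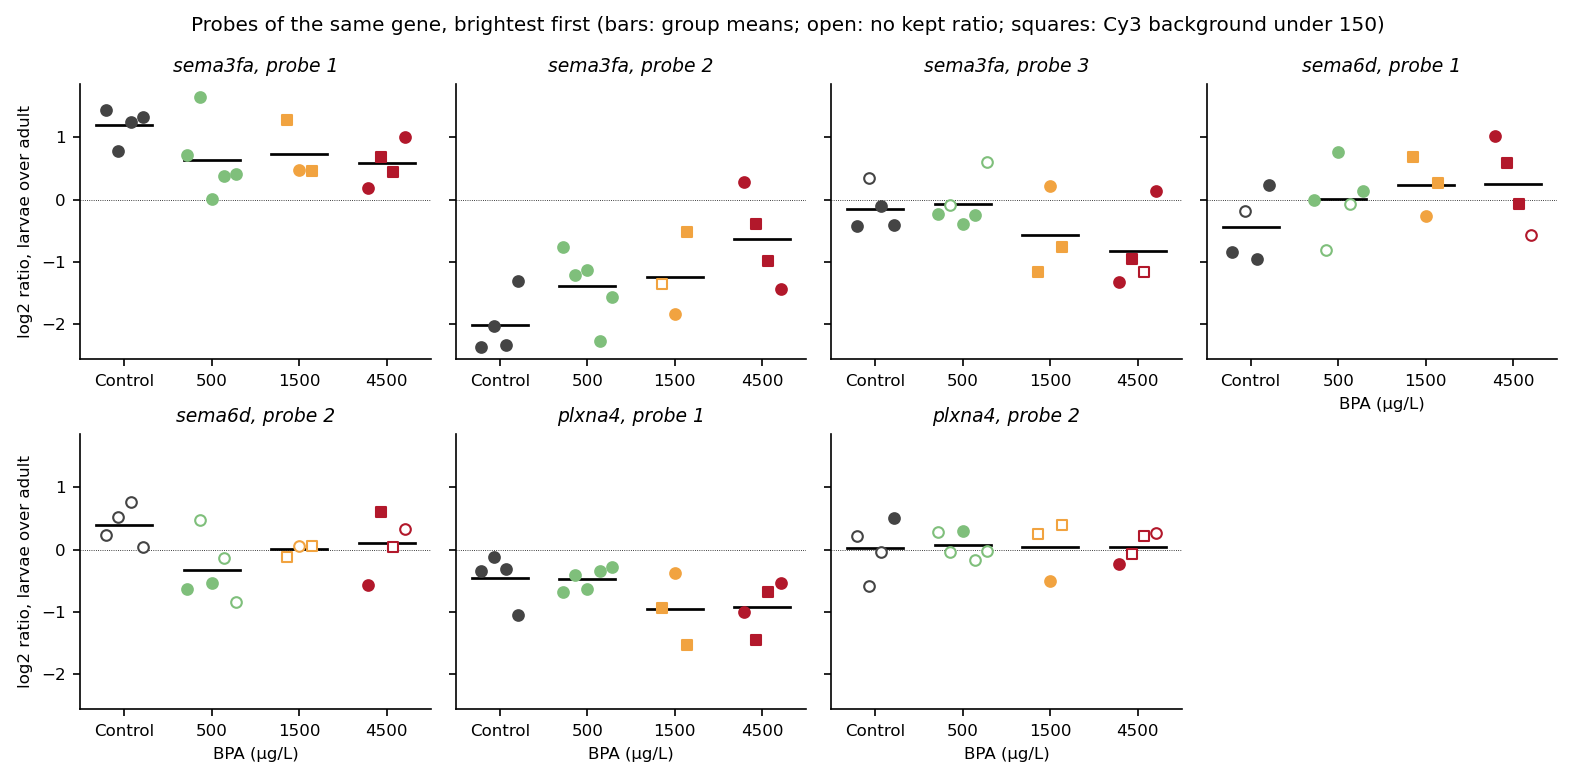
Log2 ratio on each array for the probes of sema3fa, sema6d and plxna4, brightest first. Bars are group means, open symbols have no kept ratio, squares are arrays of Cy3 background under 150 units. The 3 sema3fa probes lie at different levels, and at 4500 µg/L probe 2 is higher than in Control larvae by 1.38 while the others are lower by 0.61 and 0.68.

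By their brightest probes, all 3 plexins had a change below 0 at each concentration, none past a test. The dimmer plxna4 probe changed by 0.04, 0.02 and 0.02 at rising concentrations. plxna4 read -0.996, -1.45, -0.67 and -0.54 at 4500 µg/L, against -0.34, -0.11, -0.31 and -1.06 in Control larvae, where replicate 4 lay within the BPA range. The difference was -0.46 ± 0.28 (SE, adjusted p = 0.345), -0.20 with the low Cy3 arrays as a block, and its dimmer probe, with a kept ratio on 4 arrays, differed by 0.02 ± 0.26 (SE). plxnd1, the plexin of blood vessels, differed by -0.22 ± 0.34 (SE, adjusted p = 0.754) and plxnb2a.1 by -0.32 ± 0.28 (SE, adjusted p = 0.525), the last with no kept ratio at 1500 µg/L.

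Among the netrins, ntn4, a netrin of basement membranes, was bright on every array. Its ratios were -0.61, 0.01 and -1.16 at 1500 µg/L and -0.66, -0.53, -0.50 and -0.21 at 4500 µg/L, against 0.23, 0.13, 0.07 and -0.41 in Control larvae. Control replicate 4 lay within both BPA groups, and the other Control arrays were above all 4500 µg/L arrays. The differences in the kept-spot fit were -0.19 ± 0.25, -0.59 ± 0.28 and -0.48 ± 0.26 (SE) at rising concentrations, with an unadjusted p of 0.0489 and an adjusted p of 0.647 at 1500 µg/L. With the low Cy3 arrays as a block they were -0.32 and -0.28 at 1500 and 4500 µg/L, and the 1 array of higher background at 1500 µg/L gave 0.00. ntn1b, a zebrafish netrin-1 of the floor plate, differed by -0.32 ± 0.27 (SE, adjusted p = 0.527) at 4500 µg/L.

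Of the Slit and Robo genes, slit2, a secreted repellent of midline and retinal axons, had the lowest p at both higher concentrations. It read -0.84, -0.23 and -0.63 at 1500 µg/L and -0.72, -0.85, -1.13 and -0.16 at 4500 µg/L, against 0.16, 0.17, -0.16 and 0.33 in Control larvae. No array of these 2 groups lay above a Control array, although the highest 4500 µg/L array and the lowest Control array both stood at -0.16. The differences were -0.20 ± 0.24, -0.70 ± 0.28 and -0.84 ± 0.26 (SE) at rising concentrations, with an unadjusted p of 0.0214 and 0.00406 and an adjusted p of 0.369 and 0.074 at 1500 and 4500 µg/L. Without replicate 4 at 4500 µg/L, the highest array, the difference was -1.02 (adjusted p = 0.0175). Over the runs that each left out 1 of the 16 arrays, it ran from -1.02 to -0.70. The adjusted p in these runs was 0.0175 to 0.18. With the low Cy3 arrays as a block the differences at these 2 concentrations were -0.34 and -0.57, and without background correction -0.52 and -0.46. The study's 2-step rule was run with limma, as an F-test at a false discovery rate under 0.2 and then an unadjusted p under 0.05. With every spot, slit2 passed at 1500 and 4500 µg/L and epha7 at 4500 µg/L, among 951 and 1354 of 22980 probes. With kept spots no probe passed. Run on the values as processed here, the methods' own 2 steps passed no member. The study, on its own normalized ratios, reported far more genes at each concentration. Its lists hold the human homologs of efnb1 and slit2 and a gene of the lrrc4 family. With every spot the 2 steps as run here passed only 23, 51 and 63 of all probes at rising concentrations, and with kept spots 0. The absence of members among so few probes says little.

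slit3 read -0.84, 0.42, -0.48 and -0.36 at 4500 µg/L, against 0.25, 0.32, -0.25 and 0.29 in Control larvae, a difference of -0.47 ± 0.26 (SE, adjusted p = 0.313). It was -0.79 with the low Cy3 arrays as a block and -0.75 on the other arrays but -0.19 without background correction, and no ratio was kept at 1500 µg/L. robo3, a Robo receptor of commissural and escape-circuit axons, read -0.35, -0.44, -0.32 and 0.05, against 0.20, 0.29, 0.62 and 0.08, so that the groups did not overlap, a difference of -0.56 ± 0.27 (SE, adjusted p = 0.235) on 3 kept ratios in all, and -0.28 without background correction. robo1, the brightest member probe, was at -0.26, -0.55, -0.84 and -0.29, against -0.02, -0.37, 0.21 and -0.66, and differed by -0.28 ± 0.24 (SE, adjusted p = 0.538), and by -0.01 with the low Cy3 arrays as a block. Of these 6 genes 1 had a change above 0 at 4500 µg/L, robo2 at 0.12 ± 0.20 (SE), named after its value was seen.

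cxcr4a, a receptor of the chemokine Cxcl12 in endothelium and endoderm, was printed in 15 spots and is given as their mean. Its ratios were -0.69, -0.85, -0.96 and -1.204 in Control larvae, -1.04 to -0.48 at 500 µg/L, and -0.31, -0.57 and -0.18 at 1500 µg/L. At 4500 µg/L they were 0.09, -0.07, -0.11 and -0.63. All arrays of the 2 higher concentrations were above all Control arrays, and only 1 of the 16 was above 0. A kept ratio existed on 3 of 4 Control arrays, on 2 of 3 at 1500 µg/L and on 1 of 4 at 4500 µg/L. How often other probes separate from Control in this way, here or for efnb1, slit2, robo3 and lrrc4.2, is not given. The differences were 0.26 ± 0.21, 0.57 ± 0.24 and 0.75 ± 0.22 (SE) at rising concentrations, with an adjusted p of 1, 0.381 and 0.0653 and an unadjusted p of 0.00294 at 4500 µg/L. Of the 15 spots, 10, 13 and 13 had a change above 0, although spots of 1 probe share their arrays and are not replicates. The spots were dim, with a Cy5 mean above background by 2 SDs on 1 of 16 arrays, and within an array they spread by 0.38 to 0.87 (SD). With the low Cy3 arrays as a block the differences at 1500 and 4500 µg/L were 0.41 and 0.63, without background correction 0.25 and 0.35, and the Control level was -0.45 without background correction and -0.23 from the deposited ratios. cxcr4b, the receptor of the lateral line primordium and of retinal axons, had a kept ratio on 1 array only. It ranged between -0.87 and 0.46 over the 16 arrays and gave no measured change.

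gap43 read -0.17, 0.35, 0.46 and -0.19 at 4500 µg/L, against -0.73, -0.66, -0.62 and -0.08 in Control larvae, with overlap through Control replicate 4. Its difference was 0.63 ± 0.32 (SE, adjusted p = 0.264) in the kept-spot fit, 0.37 with the low Cy3 arrays as a block and -0.03 after correction for position in the order of spot IDs. lrrc4.2 read -0.21, -0.19 and -1.11 at 1500 µg/L and -0.04, -0.74, -0.34 and -0.30 at 4500 µg/L, against 0.19, 0.09, 0.29 and -0.08 in Control larvae. The 1500 µg/L arrays lay below every Control array, those at 4500 µg/L overlapped by 1 array. Differences in the kept-spot fit were -0.39 ± 0.24, -0.62 ± 0.27 and -0.47 ± 0.25 (SE), and at 1500 µg/L the p was 0.0289 unadjusted and 0.647 adjusted. That difference was -0.35 with the low Cy3 arrays as a block and -0.32 without replicate 3.

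The partners and effectors of these receptors were read from a list of 113 genes, of which 58 had a probe. With every spot and the brightest probe of each gene, 0, 1 and 3 of the 58 passed an adjusted p under 0.05 at 500, 1500 and 4500 µg/L, where 0%, 0.0131% and 3.08% of all probes did, and all of these were higher than in Control larvae. At an unadjusted p under 0.05, 9 were higher and 5 lower at 4500 µg/L, where 21.8% of all probes passed. pak2b, a p21-activated kinase, rose by 1.68 ± 0.27 and 1.66 ± 0.25 (SE) at 1500 and 4500 µg/L (adjusted p = 0.0451 and 0.00617). At 4500 µg/L nrp1b, a neuropilin and co-receptor of class 3 semaphorins, rose by 1.54 ± 0.35 (SE, adjusted p = 0.0286) and rgs3a, a regulator of G protein signaling whose mammalian form links ephrin-B to chemokine receptors, by 1.39 ± 0.35 (SE, adjusted p = 0.0369). pak2b and nrp1b had Control ratios of -2.10 and -2.67, and low ratios over all probes also lay nearer 0 in the BPA groups, as given above. In the kept-spot fit 0 of 16 genes passed, with 2 higher and 3 lower at an unadjusted p under 0.05 at 4500 µg/L, where 20.5% of all probes passed. The lowest p-values there belonged to rgs3a at 1.41 ± 0.38 (SE, adjusted p = 0.134), to cfl1, the actin-severing cofilin, at 0.85 ± 0.26 (SE, adjusted p = 0.138), to ptk2ab, a focal adhesion kinase, at -0.79 ± 0.24 (SE, adjusted p = 0.138) and to pak4 at -0.77 ± 0.25 (SE, adjusted p = 0.142). The study's lists of deregulated genes from these arrays also hold PTK2, the human homolog of ptk2ab, so ptk2ab is no independent evidence of a direction. mical2b, an actin oxidase downstream of plexins, differed between its probes, at 1.07 ± 0.27 (SE, adjusted p = 0.0385) on a dimmer probe with 2 kept ratios and at -0.53 ± 0.24 (SE, adjusted p = 0.213) on the brightest, both with every spot. Dimmer probes of pak2b and cfl1 also went against the brightest with every spot, at -0.44 ± 0.26 (SE) for pak2b and at -0.67 ± 0.22 and -0.41 ± 0.22 (SE) for cfl1 at 4500 µg/L.

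The median change of this list at 4500 µg/L was -0.05, against 0.02 over all probes. Of 31 listed neuronal markers 17 had a probe, with a median change of -0.09 at 4500 µg/L. With every spot, 0 of the 17 passed an adjusted p under 0.05 at 500, 1500 and 4500 µg/L, where 0%, 0.0131% and 3.08% of all probes did. The median ratio over these markers on each array lay between -0.16 and 0.18 at 4500 µg/L, against -0.08 to 0.09 in Control larvae. For 10 glial markers these medians were -0.48 to -0.28 at 4500 µg/L, against -0.22 to 0.07 in Control larvae, and did not overlap. How often other lists do not overlap is not given here. The median of the markers' mean ratios was -0.25 at 4500 µg/L, against -0.18 in Control larvae. In the limma fit over every spot, 1 of the 10 was higher and 3 lower at an unadjusted p under 0.05, where 21.8% of all probes passed. At an adjusted p under 0.05, 1 passed, where 3.08% of all probes did. The median change of the glial markers was -0.11. Among them, gfap was at -0.62 ± 0.23 (SE, adjusted p = 0.161) in the kept-spot fit and fabp7b higher by 1.09 ± 0.27 (SE, adjusted p = 0.0344) with every spot. The study's lists of deregulated genes from these arrays also hold GFAP, so gfap is no independent evidence of a direction. For 11 endothelial markers the array medians were -0.49 to -0.08, against -0.24 to 0.08, with overlap and a median change of -0.14. At an unadjusted p under 0.05, 3 of the 11 were higher and 2 lower at 4500 µg/L, where 21.8% of all probes passed. Only 1 passed an adjusted p there, where 3.08% of all probes did. It was erg, higher by 1.197 ± 0.30 (SE, adjusted p = 0.0385). None of the markers of muscle, germ cells and larval red cells passed an adjusted p, where 3.08% of all probes did at 4500 µg/L. In lists this short, a count of 0 says little. Their median changes at 4500 µg/L were -0.01, 0.07 and -0.18. The part of these cell types in the values of the guidance genes was not tested.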

How the data were processed

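Scanner intensities (foreground and local background, GenePix Pro 4.0) and log2 ratios were deposited by the authors, who Lowess-normalized the ratios of unflagged spots. In the file of Control replicate 1, 16654 shifted lines were set right on reading. Intensities were corrected by normexp (offset 50) and loess-normalized within arrays. Spots of an accession and repeated scans were averaged. Group means were fitted in limma 3.58.1 (R 4.3.3) with a spread shared by the 4 groups, on probes with at least 3 values per group, and p-values were adjusted over all probes by Benjamini-Hochberg. Python 3.11.15 with pandas 2.3.3, numpy 2.4.6 and matplotlib 3.10.9 read files and drew figures. The scripts were tested on simulated data.

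Symbols were updated by accession, current symbol or older name, with no genome used. Members, gene lists and tests were chosen with earlier results of these data known. Named were members with an adjusted p under 0.05 in either fit or an unadjusted p under 0.05 in the kept-spot fit, per family the 2 genes of lowest p at 4500 µg/L and those of highest and lowest Control ratio with at least 6 kept ratios, and efnb1, epha7, epha2a, sema3fa, cxcr4a, cxcr4b, gap43 and lrrc4.2. Of the pathway list, the called genes and the 4 of lowest p in the kept-spot fit were named. Replicates are called biological in the labels. The methods describe pools of larvae from an experiment that was run repeatedly, while the labels speak of exposure in groups of 4 fish, and which pool came from which run is not given. The number of arrays limits precision.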

Additional observations from a re-analysis of the deposited data

Results flagged for a closer look

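Of 78 groups of 4 or 5 arrays examined for the 26 probes of the named genes, 2 held an array far from the others, and chance gives about 1 in 20 such groups. In Control larvae, replicate 4 of efnb1 was at -0.5273, against -0.2368 to -0.1881 on the other arrays. In Control larvae, replicate 3 of slit3 was at -0.2516, with no kept ratio, against 0.2472 to 0.3208 on the other arrays.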

How the results depend on the processing

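The count of guidance genes called was 0 in all 6 main comparisons. At 500 µg/L in both fits and at 1500 µg/L with every spot, it stayed 0 under every alternative that was run. Leaving out 1 array at a time gave 0 to 6 calls at 4500 µg/L with every spot and 0 in the other comparisons. At 4500 µg/L with every spot, the count was 5 with the 18 scans as separate arrays (cxcr4a, efna2a, epha7, sema3fa and slit2), 1 with median centring (cxcr4a), 2 of 35 member probes without dim spots (epha7 and sema3fa) and 1 (sema3fa) with array quality weights or with a correction for position in ID order. With kept spots, array quality weights gave 6 calls at 1500 µg/L (efnb1, lrrc4.2, ntn4, plxna4, robo1 and sema6d) and 1 at 4500 µg/L (sema6d). The cause was not tested. The share of all probes called under each of these alternatives is not given here, so the counts cannot be read as particular to guidance genes. With the replicate block the count stayed at 0 in every comparison, and the block changed no call. Deviations of 21 same-numbered pairs correlated at -0.28 to 0.30 (median 0.00), against -0.375 to 0.444 (median -0.01) for 74 differently numbered pairs. Arrays of the same number were thus no more alike than others. Whether some arrays share a run cannot be told from this, since the runs are not given. An alternative chosen after seeing the data kept only the 12 arrays of higher Cy3 background, with 1 array at 1500 µg/L assumed to vary like the others. It called 0 members, and at 1500 µg/L it turned the sign of efnb1 to -0.050 and of ntn4 to 0.0021 in both fits. Each of the 105 reported log2 fold changes of named probes was refitted under several alternatives, runs with 1 array left out included. In a further 166 of these refits the sign changed, none with an unadjusted p under 0.05 as reported or under that alternative. The sign was kept in 2691 others, and in 25 it was kept with a stronger result. The 29 reported larval over adult ratios were refitted too. Where the refit was counted as unchanged, the sign was kept in 71 and changed in 9. Where it was counted as moved, the sign was kept in 8 and changed in 2. These ratios were therefore not all stable in sign. Low signal over background limits most Eph, ephrin and semaphorin probes.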
